A study of Mus musculus with 2 samples.

Results

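The Smad family comprised Smad1, Smad2, Smad3, Smad4, Smad5, Smad6, Smad7 and Smad9, the 8 members found by gene symbol among the 31053 genes of the count tables. Single cells were profiled from mouse eye cups at postnatal day 0, with cornea, lens and optic nerve removed. There was 1 library of 3 pooled eye cups per genotype. The control carried Myrf fl/fl, in which both copies of the transcription factor gene Myrf are flanked by cre recognition sites. The mutant was Rx>cre Myrf fl/fl, with the same alleles plus a cre transgene active in the early eye field, the source of both the neural retina and the retinal pigment epithelium (RPE). Blood, endothelial and mesenchymal cells come from outside that field. Each genotype had a single library, so nothing was tested. The intervals given are 95% intervals of counting error and leave out the spread from animal to animal.

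SMAD proteins carry signals of the BMP and TGF-beta ligand families from the cell surface to the nucleus. BMP receptors phosphorylate SMAD1, SMAD5 and SMAD9, TGF-beta and activin receptors phosphorylate SMAD2 and SMAD3, and SMAD4 joins both sets to bind DNA. SMAD6 and SMAD7 block the receptors or their substrates, and transcripts of both are known to be induced by the pathway as feedback. In the eye, BMP signalling takes part in forming the RPE and in patterning the retina. The data count transcripts and not phosphorylated protein.

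The control library held 14305 barcodes with 79017429 unique molecular identifiers (UMIs, tags that each mark 1 captured transcript), and the mutant library held 12222 barcodes with 76272867 UMIs. They shared 59 barcodes. After filtering, 12449 control and 10797 mutant cells remained, with median depths of 4274 and 4820 UMIs. Cells were clustered without the Smads, and 12 classes with at least 50 cells in each library were compared. RPE-like cells, named from 11 of 14 markers, numbered 483 in the control and 191 in the mutant. Of those 11, Trpm1 stood at 1297 and 1356 CPM and the other 10 were lower in the mutant by point value, among them Rgr at 1144 and 6.64 CPM, Ttr at 4957 and 1155 CPM and Slc16a8 at 1352 and 451 CPM. Of the 3 markers that did not count toward the name, Rpe65 had 12 and 0 UMIs, Lrat 2 and 17 UMIs, and Best1 3 UMIs in each library. The median depth of RPE-like cells was 2560 UMIs (control) and 10566 UMIs (mutant), and values by depth range and after thinning cells to a common depth are given beside the results. The targeted gene Myrf gave 745 UMIs or 231 CPM (the UMIs of a gene scaled to a common total per class) in RPE-like cells of the control library, against 61 UMIs or 27.0 CPM in the mutant library, a difference in the direction of the labels.

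In RPE-like cells, 2 of the 8 Smads were higher in the mutant, Smad9 and Smad6, and none was lower. A gene was called higher or lower when its CPM, with 1 CPM added to each side, differed at least 1.5-fold and the counting interval of the plain ratio left out 1, given at least 20 UMIs over both libraries. By this rule 5.49% of the 11030 genes measured in RPE-like cells were higher in the mutant, 9.29% were lower, and 14.8% differed in either direction. The other 6 members lay within 0.11 of 0 on the log2 scale with all cells summed, and their spread over other settings is given with the limits. Taken by role, the summed BMP-regulated Smads stood at 46.9 CPM (39.7 to 55.0) against 57.6 CPM (48.1 to 68.4), a log2 ratio of 0.29 (-0.05 to 0.64). With each cell thinned once to 2000 UMIs, that ratio was -0.21. The TGF-beta-regulated Smads stood at 49.4 and 46.1 CPM, a log2 ratio of -0.10 (from -0.47 to 0.26). The inhibitory Smads stood at 62.7 CPM (from 54.4 to 72.0) and 86.4 CPM (from 74.7 to 99.4), a log2 ratio of 0.45 (from 0.17 to 0.75), which is under the 1.5-fold limit. Within that sum Smad7 stood at 38.5 CPM in each library, with all cells summed. Among cells with at least 2000 UMIs, each thinned to that number, the expected share with a Smad7 UMI was 7.50% (control) and 5.58% (mutant). These shares carry no interval. Thinned once to 2000 UMIs per cell, with 37 and 14 UMIs left, the inhibitory log2 ratio was -0.48. Over all such draws that ratio lay below its counting interval, at a value given with the limits.

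**Figure D1:**
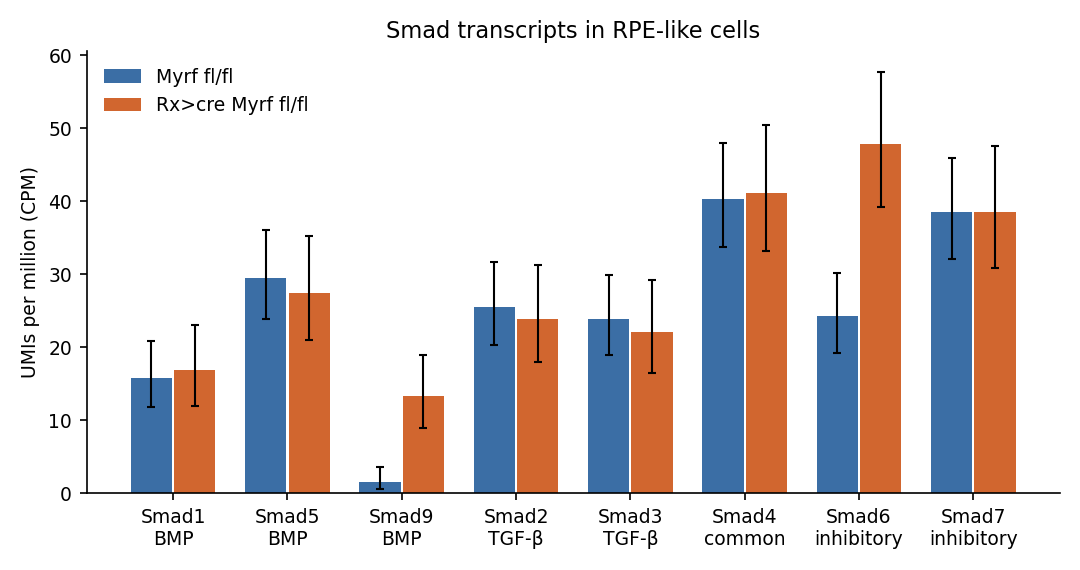
Levels of the 8 Smads in RPE-like cells, in CPM on the vertical axis, for Myrf fl/fl (blue, 483 cells) and Rx>cre Myrf fl/fl (orange, 191 cells); bars are CPM of 1 library each, and lines are exact Poisson 95% intervals. Smad9 stands at 1.55 and 13.3 CPM and Smad6 at 24.2 and 47.8 CPM, while the intervals of the other 6 members overlap almost entirely.

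Smad9 encodes a BMP-regulated SMAD, also called SMAD8. Its 5 control UMIs made 1.55 CPM (0.504 to 3.62), against 13.3 CPM (8.96 to 19.0) from 30 mutant UMIs. The mutant level was 8.55-fold the control level, and the log2 ratio with 1 CPM added was 2.48 (1.72 to 4.82). These intervals did not overlap, but the control value rests on 5 cells with 1 UMI each. In the mutant the UMIs were spread over 27 of the 191 cells, with at most 3 in a cell. Cells with a Smad9 UMI made up 1.04% of control and 14.1% of mutant RPE-like cells, shares that also carry the gap in depth. Among cells with at least 2000 UMIs, each thinned once to that number, 1 of 278 control cells (0.360%, from 0.00911 to 1.99) and 2 of 148 mutant cells (1.35%, from 0.164 to 4.80) kept a Smad9 UMI, and these intervals overlapped. The share expected over all draws was 0.451% in the control and 2.18% in the mutant, with no interval. By the same measure the retinal progenitor-like class, at median depths of 4891 and 4966 UMIs, gave 0.112% and 0.0228%. Without a gap in depth that class cannot show what such a gap does to the share.

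Smad6 encodes the inhibitor that acts mainly on BMP receptors and on SMAD1. Its 78 control UMIs made 24.2 CPM (19.2 to 30.2), against 47.8 CPM (39.2 to 57.7) from 108 mutant UMIs. The mutant level was 1.97-fold the control level, a log2 ratio of 0.95 (from 0.55 to 1.42), and the intervals did not overlap. UMIs of Smad6 were found in 65 of 483 control cells, with at most 3 in a cell, and in 62 of 191 mutant cells, with at most 8. A single thinning to 2000 UMIs per cell gave 16 of 278 control cells, or 5.76% (from 3.33% to 9.18%), and 5 of 148 mutant cells, or 3.38% (from 1.11% to 7.71%). That share runs against the CPM and rests on few UMIs, so no order was read from it. The share expected over all such draws was 4.96% in the control and 7.64% in the mutant. Amacrine-like cells, which held almost no Smad6 at median depths of 5412 and 5671.5 UMIs, gave 0.314% and 0.268%. With depths this similar they cannot show what a depth gap does to the share.

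Because the depth of RPE-like cells differed between the libraries, the members were also compared within ranges of depth. Among the 151 control and 109 mutant RPE-like cells with over 8000 UMIs, Smad6 stood at 26.3 CPM (from 20.3 to 33.5) and 49.6 CPM (from 40.4 to 60.3), a log2 ratio of 0.89 (from 0.45 to 1.39). Smad9 stood at 1.20 and 14.2 CPM there, on 3 and 29 UMIs, a log2 ratio of 2.80 (from 1.89 to 5.93). The other 6 members lay between -0.10 and 0.14 in these cells. In the 127 control and 39 mutant cells of over 2000 and up to 8000 UMIs, Smad6 stood at 18.5 and 33.3 CPM, on 9 and 6 UMIs, while Smad9 had 2 control UMIs and 0 mutant UMIs. The log2 ratio there was -0.37 (from -1.72 to 0.80) for the inhibitory sum, with Smad7 at -1.73 on 19 and 2 UMIs, -0.27 for the BMP-regulated sum, -0.50 for the TGF-beta-regulated sum and -1.23 (from -3.24 to 0.26) for Smad4, on 26 and 4 UMIs. Of the 30 mutant Smad9 UMIs, 29 thus lay in deep cells. In cells of up to 2000 UMIs the 8 Smads together had 35 control UMIs and 13 mutant UMIs, too few to compare single members.

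The libraries also differed in sex-linked UMIs among RPE-like cells, with 79 control and 75 mutant cells that had Xist and no Y-linked UMIs and 128 and 34 cells with the reverse. Among the first, Smad6 had 25 and 80 UMIs and a log2 ratio of 1.02, and Smad9 had 1 and 17 UMIs and a log2 ratio of 2.65. Among the second, Smad6 had 30 and 21 UMIs and a log2 ratio of 1.05, and Smad9 had 4 and 9 UMIs and a log2 ratio of 2.40.

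Pericyte-like cells also held Smad6 and Smad9 and endothelial-like cells Smad6, so their markers were read in the RPE-like cells. The 9 pericyte markers summed to 272 CPM in control and 374 CPM in mutant RPE-like cells, which is 9.27% and 9.06% of their sum in pericyte-like cells, and 1 and 2 of the 9 genes were at 0. The 10 endothelial markers summed to 69.0 and 50.04 CPM, on 222 and 113 UMIs, with none and 1 at 0. Pericyte-like cells themselves held Smad9 at 10.9 and 9.03 CPM, beside 1.55 and 13.3 CPM in RPE-like cells. In the mutant the intervals of these classes overlapped. Only 176 control and 46 mutant RPE-like cells had no UMI of either list. In these, Smad6 had 9 and 7 UMIs and a log2 ratio of 1.34, and Smad9 had 2 and 2 UMIs and a log2 ratio of 1.54. Of the 17 marker lists of other cells, 10 were lower in the mutant by point value, that of endothelial cells among them. As a ratio the gap was widest for the 11 mesenchyme markers (2452 against 394 CPM), the 10 of lens (371 against 64.2 CPM) and the 10 of muscle (46.9 against 10.2 CPM). The others were those of horizontal cells (507 against 329 CPM), photoreceptors (748 against 619 CPM), neurogenic cells (287 against 260.4 CPM), red blood cells (121 against 84.6 CPM), white blood cells (73.3 against 49.2 CPM) and Schwann cells (55.3 against 37.6 CPM). The part of RNA from these other cells in the Smad6 and Smad9 differences was not tested.

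The promoters of Smad6 and Smad9 are shown because these are the 2 members that differed in RPE-like cells. Windows of 300 bases, from 250 bases before the start site to 50 after it, were taken from a RefSeq table on GRCm38.p6, in which 5 of the 8 members were matched. Each was searched on both strands for GTCT, the short Smad-binding letters, for the palindrome GTCTAGAC made of both orientations of GTCT, and for GGCGCC, a GC-rich Smad-binding sequence. The sequences run 5′ to 3′ on the strand of the gene, and capitals mark matches to GTCT (or AGAC on the other strand) and to GGCGCC. The Smad6 window lies at chr9:64022010-64022309 on the minus strand and the Smad9 window at chr3:54755332-54755631 on the plus strand.
Smad6: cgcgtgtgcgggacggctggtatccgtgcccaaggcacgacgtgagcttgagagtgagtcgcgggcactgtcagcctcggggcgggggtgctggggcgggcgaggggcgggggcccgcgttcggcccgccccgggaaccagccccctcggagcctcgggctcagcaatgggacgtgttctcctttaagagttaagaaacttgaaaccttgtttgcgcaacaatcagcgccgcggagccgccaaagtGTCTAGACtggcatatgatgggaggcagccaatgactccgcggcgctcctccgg
Smad9: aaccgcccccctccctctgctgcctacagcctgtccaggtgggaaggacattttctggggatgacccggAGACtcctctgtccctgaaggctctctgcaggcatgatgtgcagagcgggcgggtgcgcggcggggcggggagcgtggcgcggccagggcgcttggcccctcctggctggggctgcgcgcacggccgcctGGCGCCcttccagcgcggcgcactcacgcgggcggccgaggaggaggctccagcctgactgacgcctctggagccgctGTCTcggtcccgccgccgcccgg

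The Smad6 window holds GTCTAGAC, beginning 4 bases before the start site, and no GGCGCC. Of 32851 mouse promoter windows of this length, 0.213% hold that palindrome and 88.0% hold GTCT. The Smad9 window holds GTCT letters at 2 places and GGCGCC at 1, 51 bases before the start site, and 11.9% of all windows hold GGCGCC. Of the other members matched, Smad1 had no match, Smad3 had 1 GTCT match, and the 3 windows of Smad5 each had GTCT, with GGCGCC in 2 that overlap. These matches describe letters in a window, and binding was not measured.

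Smad1 and Smad5, the BMP-regulated members that were not called in RPE-like cells, had their highest levels outside the neural retina. In RPE-like cells Smad1 had 51 and 38 UMIs, or 15.8 and 16.8 CPM, a log2 ratio of 0.08 (from -0.56 to 0.72). Smad5 had 95 and 62 UMIs, or 29.5 and 27.5 CPM, a log2 ratio of -0.10 (from -0.59 to 0.37). Endothelial-like cells, in which SMAD1 and SMAD5 carry BMP signals that shape vessels, led for both. Smad1 stood there at 89.3 CPM (control) and 124 CPM (from 108 to 141, mutant), apart from the next class, mesenchyme-like cells at 48.9 and 44.2 CPM. Smad5 stood there at 74.8 and 73.0 CPM and in mesenchyme-like cells at 59.2 and 57.2 CPM, with intervals that overlapped in the mutant and not in the control. RPE-like cells had less Smad1 than the 4 classes of the neural retina, which lay between 27.5 and 42.5 CPM over both libraries.

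Smad9 had few or no UMIs in most classes. In the control, pericyte-like cells led with 52 UMIs at 10.9 CPM (from 8.15 to 14.3), apart from mesenchyme-like cells at 3.00 CPM. In the mutant, RPE-like cells at 13.3 CPM and pericyte-like cells at 9.03 CPM had overlapping intervals and stood apart from mesenchyme-like cells at 3.54 CPM. The 4 neural retina classes had at most 10 Smad9 UMIs each in a library. Endothelial-like cells had 6 control UMIs and 0 mutant UMIs, and a count of 0 allows up to 1.62 CPM there. In smaller classes a count of 0 says less, with up to 4.07 and 5.15 CPM allowed in muscle-like cells and up to 4.47 CPM in white blood-like cells of the mutant, above the level of mesenchyme-like cells.

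**Figure D2:**
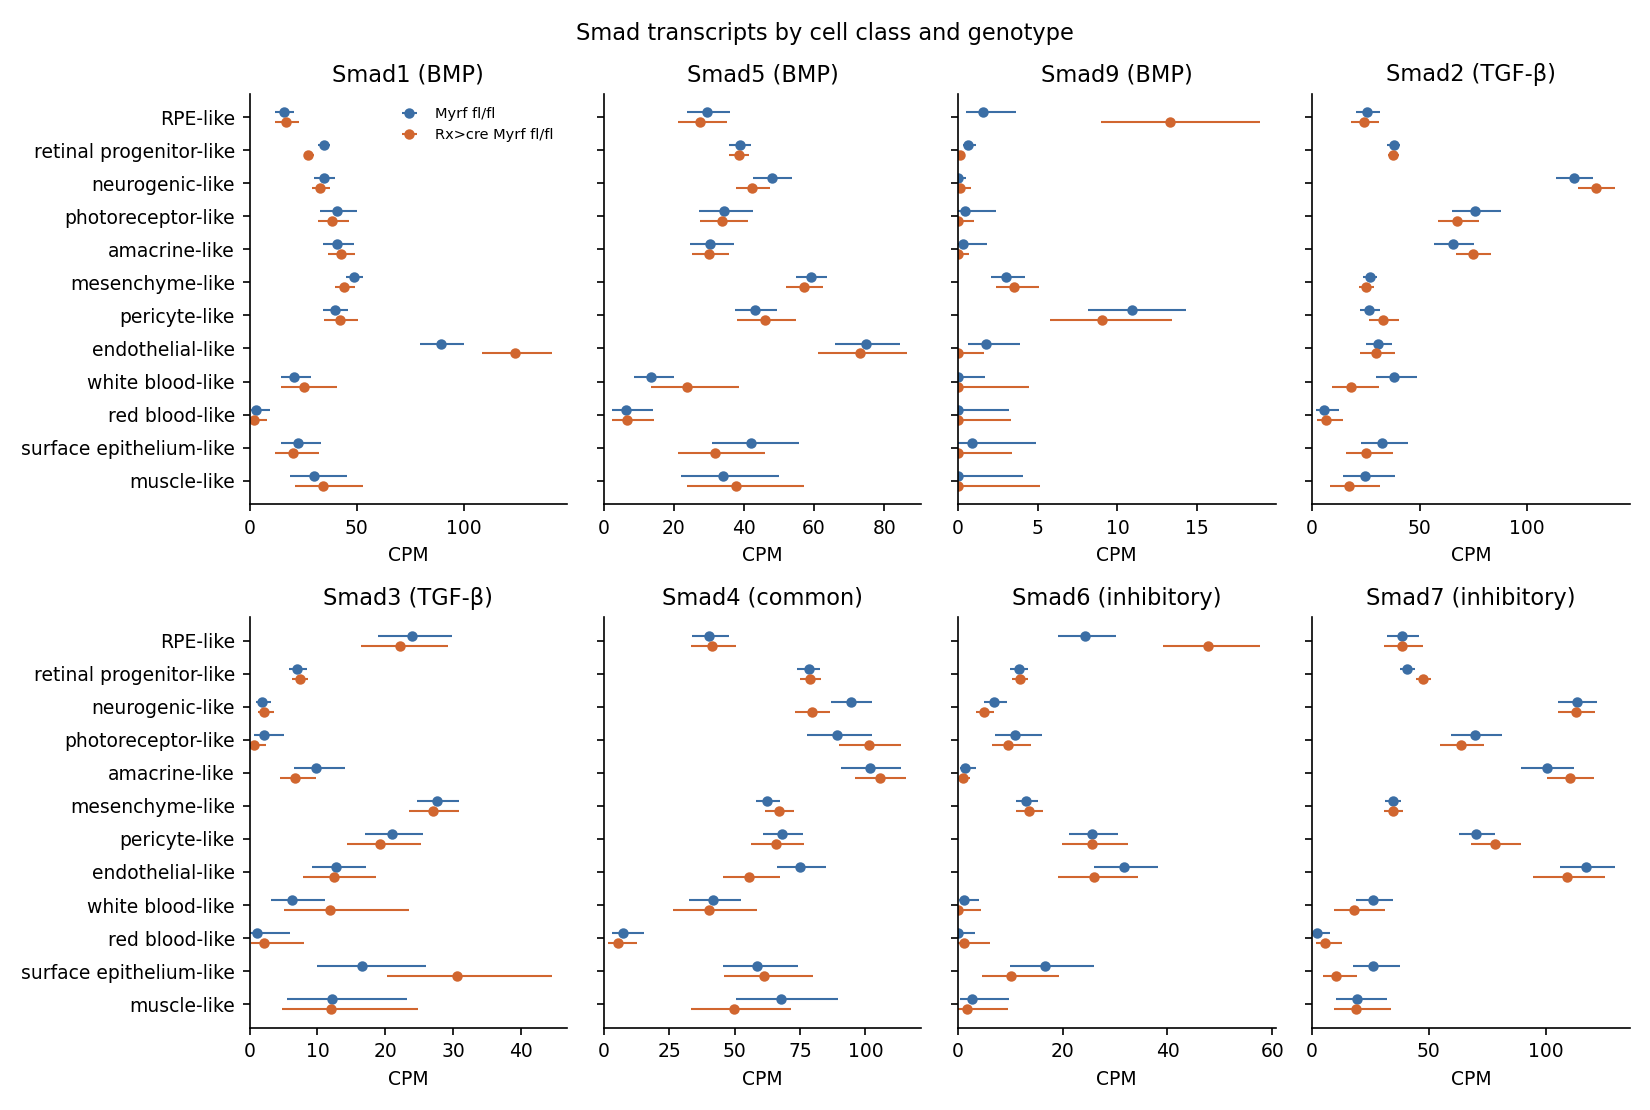
Levels of each Smad, in CPM on the horizontal axis, in 12 cell classes of the Myrf fl/fl (blue) and Rx>cre Myrf fl/fl (orange) libraries; points are CPM of 1 library, and lines are exact Poisson 95% intervals, with the limit of 3 counts where the count was 0. Smad1, Smad5 and Smad7 are high in endothelial-like cells, Smad2 is highest in neurogenic-like cells at 122 and 132 CPM, and the 2 libraries' intervals for Smad6 and for Smad9 do not overlap in RPE-like cells.

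Smad2 and Smad3 form the TGF-beta-regulated pair. Smad2 was highest in neurogenic-like cells, the progenitors that are turning into neurons, at 122 CPM (113 to 131) against 132 CPM (124 to 141). Photoreceptor-like and amacrine-like cells followed at 65.4 to 75.8 CPM over both libraries, and retinal progenitor-like cells held 37.9 and 37.8 CPM. Among the 3 neurogenic-like clusters, the level was highest in the cluster with Neurod4 and Neurod1, regulators of neuron formation, among its leading genes, at 190 and 165 CPM. Smad3 was almost absent where Smad2 was highest. It had 11 and 15 UMIs in neurogenic-like cells, or 1.77 and 2.15 CPM, and 5 and 2 UMIs in photoreceptor-like cells.

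Smad3 had its higher levels outside the neural retina and in the RPE. It stood at 27.6 and 27.0 CPM in mesenchyme-like cells, 21.0 and 19.2 CPM in pericyte-like cells and 23.9 and 22.1 CPM in RPE-like cells, neighbours whose intervals overlapped in both libraries. In the mutant, surface epithelium-like cells had the highest level, 30.6 CPM on 27 UMIs, overlapping mesenchyme-like cells, against 16.6 CPM on 19 UMIs in the control, and this difference was not called (0.84, from -0.02 to 1.81). Retinal progenitor-like cells held less, 6.98 and 7.38 CPM. In RPE-like cells Smad2 had 82 and 54 UMIs, or 25.5 and 23.9 CPM, with a log2 ratio of -0.09 (from -0.61 to 0.42). Smad3 had 77 and 50 UMIs there, with a log2 ratio of -0.11 (from -0.65 to 0.42). RPE-like cells thus held nearly equal Smad2 and Smad3 by UMI count, each transcript being counted at its 3′ end whatever its length, whereas neurogenic-like cells held 759 Smad2 UMIs to 11 of Smad3 in the control.

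Smad4, the common partner, was found in each neural retina class that was compared. No class of ganglion or horizontal cells was named. It stood at 102 and 105.5 CPM in amacrine-like cells, overlapping the next class in both libraries, and between 78.3 and 101 CPM in the other neural retina classes. RPE-like cells held 130 and 93 UMIs, or 40.4 CPM (33.7 to 47.9) and 41.2 CPM (33.2 to 50.5), below each neural retina class in both libraries, and the log2 ratio was 0.03 (from -0.37 to 0.42). Over all 8 members, RPE-like cells summed to 199 and 231 CPM, against 249.5 CPM in retinal progenitor-like cells of each library, 421 and 408 CPM in neurogenic-like cells and 433 and 430 CPM in endothelial-like cells. Red blood-like cells, which make little RNA but globin, had 25.7 and 29.8 CPM.

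The inhibitors differed in where they were found. Smad7, which acts on both branches, was high in endothelial-like (117 and 109 CPM), neurogenic-like (113 and 113 CPM) and amacrine-like cells (100.4 and 110 CPM), whose intervals overlapped. The 2 amacrine-like clusters differed, with 144 and 166 CPM in the cluster with Calb2 and Eomes among its leading genes and 51.0 and 62.7 CPM in the cluster with C1ql2 and Crabp1. In RPE-like cells Smad7 had 124 and 87 UMIs and stood at 38.5 CPM in each library, a log2 ratio of 0.00 (from -0.41 to 0.41). Smad6 was near 1 CPM in amacrine-like cells, on 4 UMIs in each library, and at most 11.8 CPM in the other neural retina classes. In the control, endothelial-like (31.7 CPM), pericyte-like (25.6 CPM) and RPE-like cells (24.2 CPM) had overlapping intervals for Smad6. In the mutant, RPE-like cells led at 47.8 CPM, apart from endothelial-like cells at 26.0 CPM (from 19.1 to 34.4).

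The make-up of the Smad UMIs put these levels on 1 scale within each class. In RPE-like cells Smad6 made up 12.1% (from 9.72% to 14.9%) of 642 Smad UMIs in the control and 20.7% (from 17.3% to 24.4%) of 522 in the mutant, and Smad9 made up 0.779% and 5.75%. Inhibitory Smads made up 39.5% (from 35.2% to 43.8%) of the inhibitory and receptor-regulated UMIs in control RPE-like cells and 45.5% (from 40.7% to 50.3%) in mutant RPE-like cells, with overlapping intervals. BMP-regulated members made up 48.7% and 55.6% of the receptor-regulated UMIs in RPE-like cells, 67.1% and 66.8% in mesenchyme-like cells and 79.3% and 82.4% in endothelial-like cells.

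**Figure D3:**
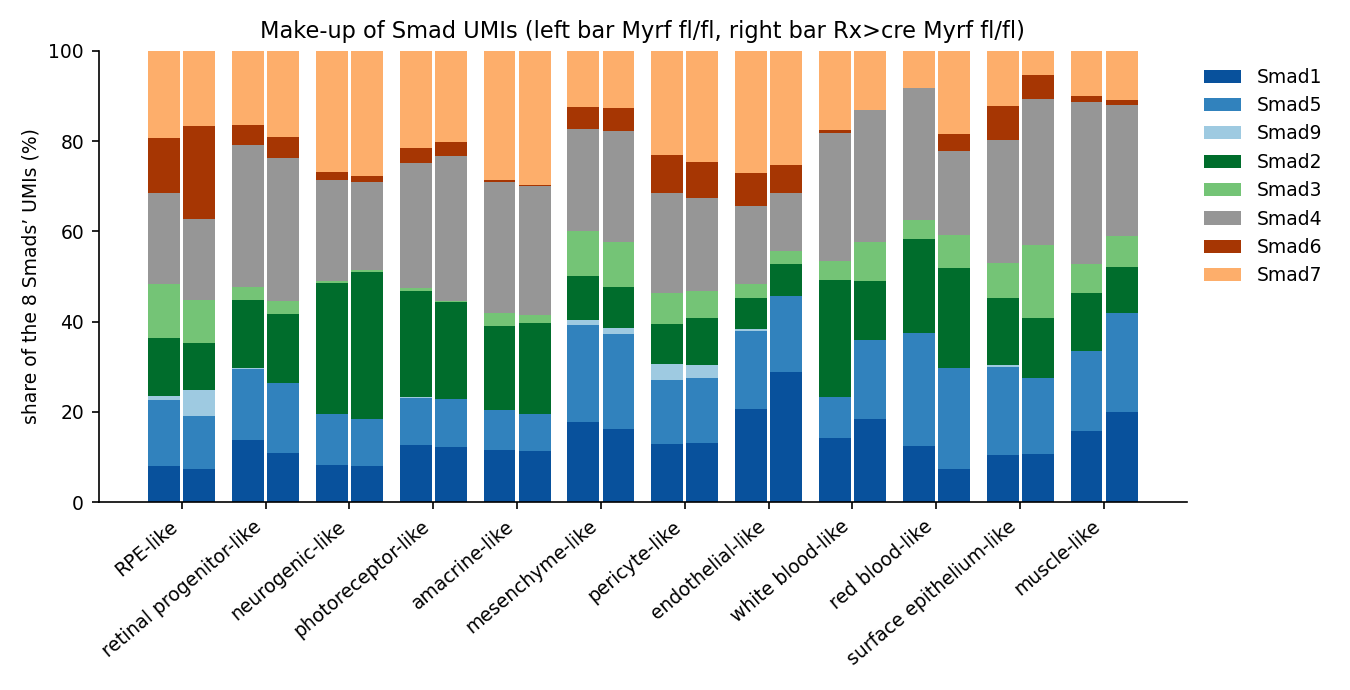
Share of each member among the UMIs of the 8 Smads (vertical axis, percent) in 12 cell classes, with Myrf fl/fl on the left and Rx>cre Myrf fl/fl on the right of each pair; bars are 1 library each and carry no error. In RPE-like cells the Smad6 share is 12.1% and 20.7%, Smad2 fills 28.9% and 32.4% of the neurogenic-like bars, and red blood-like bars rest on only 24 and 27 UMIs.

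Few Smads were called outside the RPE. Of 96 combinations of member and class, 74 had at least 20 UMIs, and 4 of these were called, 2 higher in RPE-like cells and 2 lower elsewhere. In 10 of the 96 the counting interval left out 0, among them Smad4 in neurogenic-like (-0.24, from -0.42 to -0.08) and endothelial-like cells (-0.43, from -0.78 to -0.10), which did not reach 1.5-fold. The median depth of endothelial-like cells was 4438.5 (control) and 8997.5 UMIs (mutant), and thinned once to 1000 UMIs Smad4 there was at 0.46. The share of all measured genes called in either direction was 3.08% in mesenchyme-like, 5.64% in pericyte-like and 6.53% in endothelial-like cells, and within the neural retina 5.07% (amacrine-like), 4.68% (photoreceptor-like), 4.03% (neurogenic-like) and 3.78% (retinal progenitor-like), and no Smad was called in these 7 classes. It was 9.46% in muscle-like cells, where 5 members reached 20 UMIs and none was called. In red blood-like cells the 8 members had 24 and 27 UMIs in all and none reached 20, so no call could be made. It was 7.95% in white blood-like cells, where 1 member was called, Smad2, with 68 UMIs (38.3 CPM, from 29.7 to 48.6) in the control and 12 UMIs (17.9 CPM, from 9.23 to 31.2) in the mutant. Its log2 ratio was -1.06 (from -2.12 to -0.20), and the median depth of these cells was 2961 and 8548 UMIs.

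In surface epithelium-like cells, where 7.93% of genes were called, 1 member was called as well. Smad7 had 30 UMIs (26.2 CPM, from 17.7 to 37.5) in the control library and 9 UMIs (10.2 CPM, from 4.67 to 19.4) in the mutant library, with -1.28 as the log2 ratio (from -2.62 to -0.25). The class joins a cluster led by Krt14 with 92 control and 39 mutant cells and a cluster led by Krt6a with 33 and 31 cells. Smad7 stood at 41.5 and 15.9 CPM in the first and at 4.27 and 5.96 CPM in the second, on 2 and 3 UMIs. The inhibitory sum of this class was lower too, at a log2 ratio of -1.03 (from -1.94 to -0.26).

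**Figure D4:**
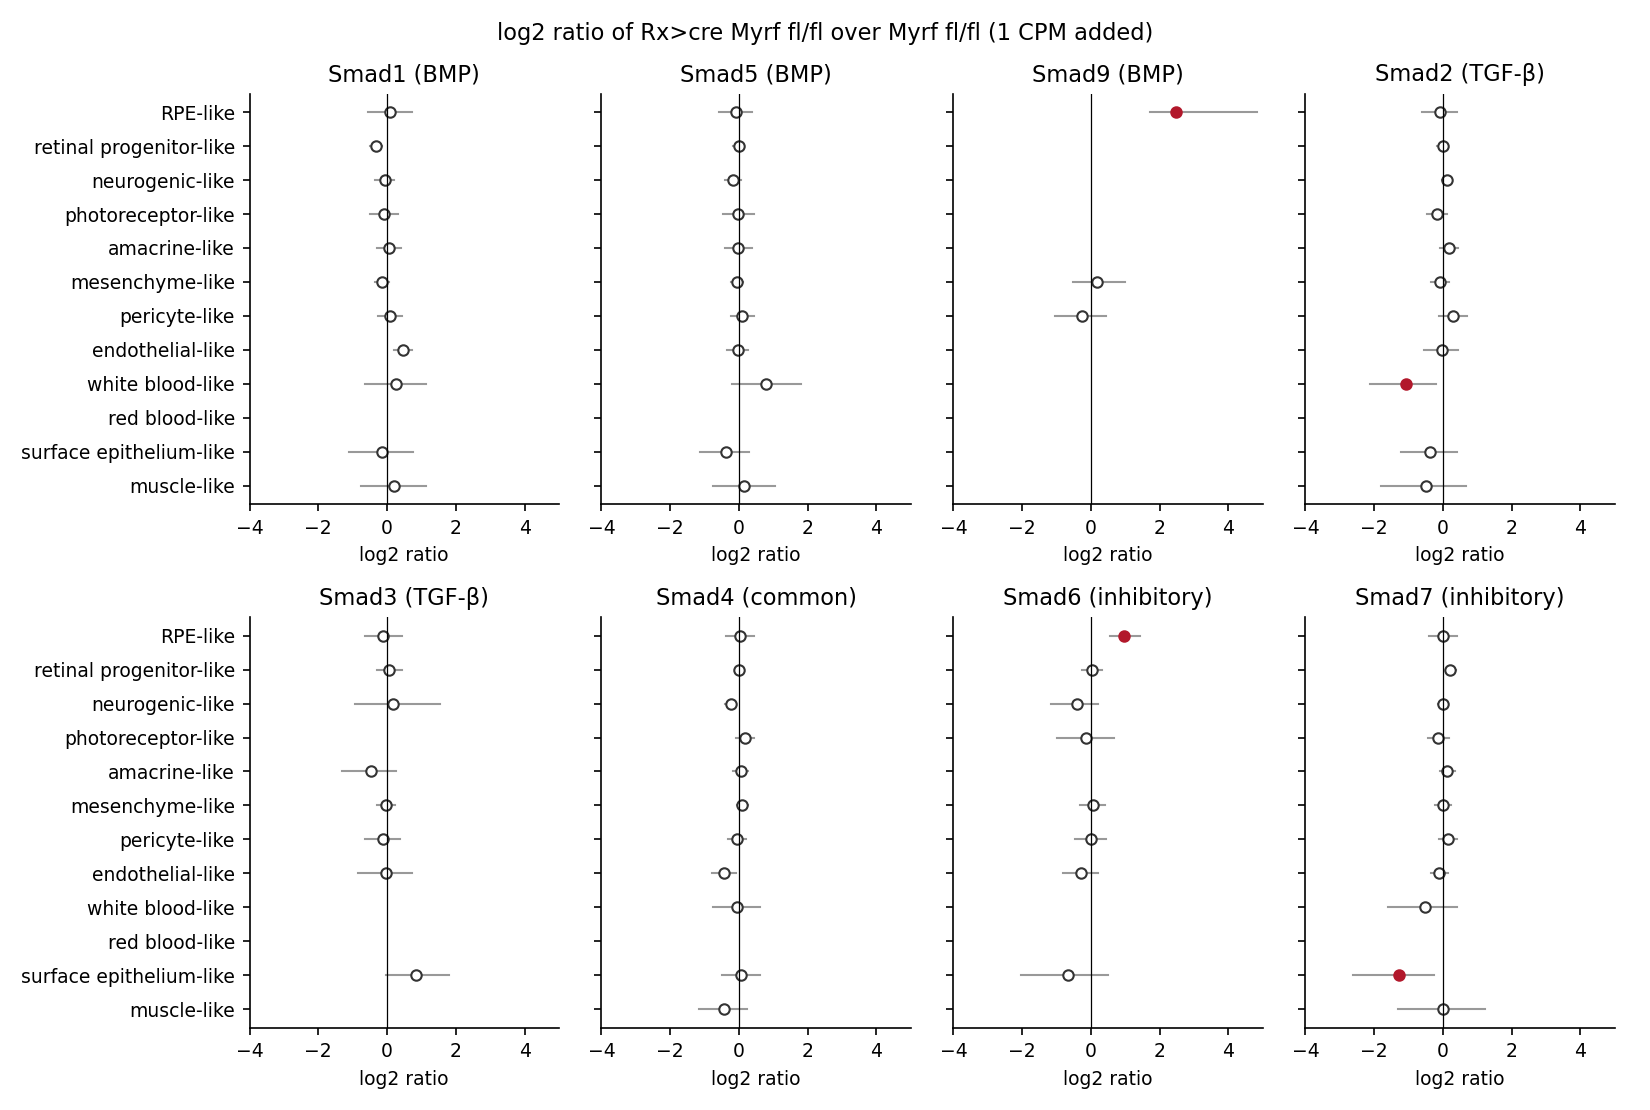
Log2 ratio of Rx>cre Myrf fl/fl over Myrf fl/fl for each Smad (horizontal axis, 1 CPM added to each side) in 12 cell classes, shown where both libraries together had at least 20 UMIs; lines are 95% counting intervals of the ratio with nothing added, and filled red points are called. The called points are Smad9 (2.48) and Smad6 (0.95) in RPE-like, Smad2 (-1.06) in white blood-like and Smad7 (-1.28) in surface epithelium-like cells.

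The other genes of the pathway were read in the same RPE-like cells from a list of 86, of which 58 had at least 20 UMIs. Of these, 7 were higher and 12 lower in the mutant, against the 5.49% and 9.29% of all genes, and the median log2 ratio of the list was -0.10, beside -0.01 over all genes. Of the BMP targets, 4 of 7 measured genes were higher and 1 was lower. Id3 and Id1, inhibitors of helix-loop-helix transcription factors and classic BMP targets, were at 755 and 2293 CPM (log2 ratio 1.60, from 1.53 to 1.67) and at 178 and 487 CPM (1.45, from 1.30 to 1.60). Id4 (20 and 37 UMIs, log2 ratio 1.27) and the transcription factor Atoh8 (25 and 63 UMIs, log2 ratio 1.72) were also higher. Id2 at -0.04 (from -0.16 to 0.08) and Hey1 at 0.73 (from -0.07 to 1.72) were not called, and Msx1, with 35 and 5 UMIs, was lower at -1.88.

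Ligands, receptors and extracellular inhibitors are read against the 9.29% of all genes that were lower, the 5.49% that were higher and the 14.8% that were called either way. Among BMP and GDF ligands 1 of 5 was lower, Bmp4, at 491 and 176 CPM (-1.47, from -1.64 to -1.32 on the log2 scale). Bmp2 at 0.36 (from 0.01 to 0.72), Bmp6 at 0.02 (from -0.28 to 0.31), Bmp7 at -0.29 (from -0.51 to -0.08) and Gdf11 at -0.51 (from -0.98 to -0.08) were not called. None of the 4 type I receptors was called, with Bmpr1a at 0.36 (from 0.04 to 0.68). The intervals of Bmp2, Bmp7, Gdf11 and Bmpr1a left out 0, but these genes did not reach 1.5-fold. Of 8 secreted and membrane inhibitors 4 were lower. Wfikkn2, an inhibitor of several TGF-beta family ligands, had 967 and 40 UMIs and a log2 ratio of -4.01 (from -4.58 to -3.63). Nog (-0.80), Chrd (-0.83) and Bambi (-0.75) were lower by less, as were the type II receptor Bmpr2 (-0.64) and the cofactors Sp1 (-0.91) and Tgif1 (-0.64), and the ligand Tgfb2 was higher (0.73). Of these, Wfikkn2 and Bmp4 came from the rule for naming, and the others were named after their values were seen.

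Of 11 genes of Smad turnover and anchoring 1 was called, beside 14.8% of all genes, the deubiquitinase gene Usp15, with 98 and 35 UMIs, or 30.4 and 15.5 CPM (log2 ratio -0.93, from -1.57 to -0.40). The ubiquitin ligase genes Smurf1 (-0.57, from -1.30 to 0.05), Smurf2 (0.45, from -0.04 to 0.98), Nedd4l (-0.35), Rnf111 (-0.21) and Stub1 (0.28, from 0.11 to 0.46) were not called. The phosphatase gene Ppm1a (-0.46, from -0.79 to -0.14), and Zfyve9 (-0.11), Zfyve16 (-0.12), Pmepa1 (-0.12) and Lemd3 (-0.08) were not called either. TGF-beta targets split, with Ctgf (209 and 440 UMIs, log2 ratio 1.57) and Cdkn1a (29 and 46 UMIs, log2 ratio 1.09) higher and Fn1 (-1.62) and Postn (-2.27) lower. Fn1 and Postn stood at 34.8 and 31.7 CPM in control RPE-like cells but at 311 and 418 CPM over all other control cells, and the summed mesenchyme markers of RPE-like cells, 2452 and 394 CPM, moved with them. The part of RNA from other cells in these values was not tested.

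**Figure D5:**
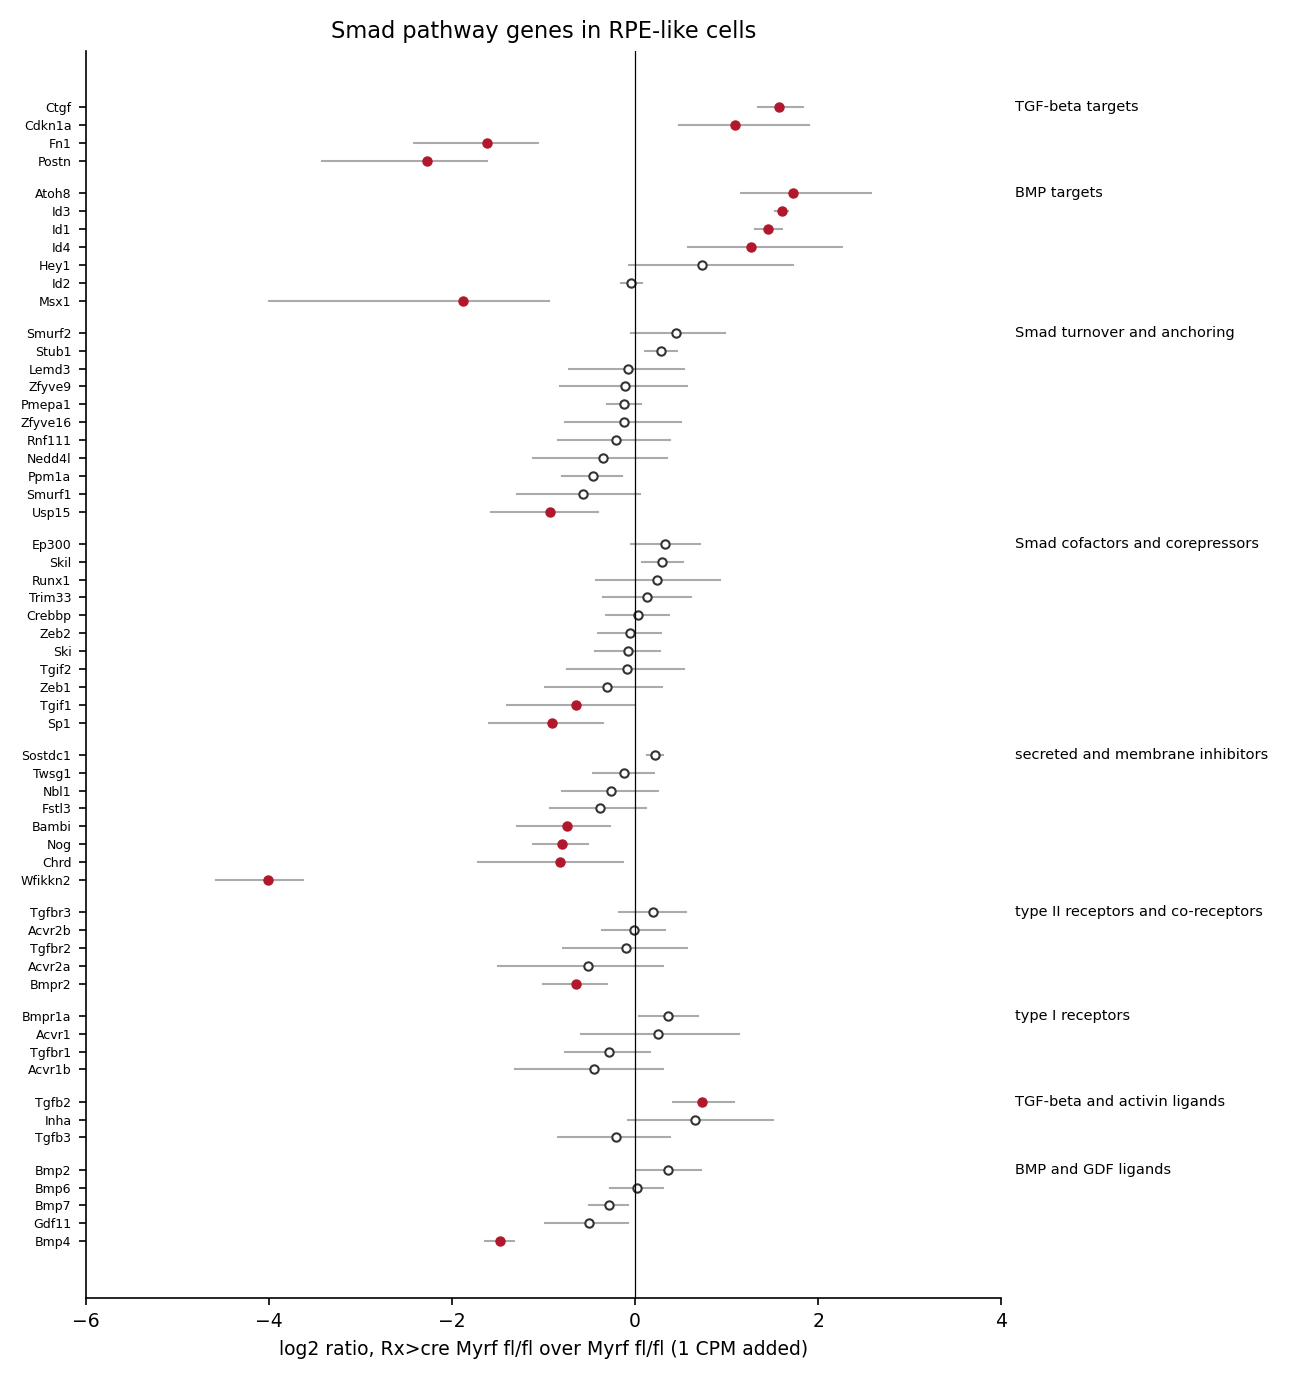
Log2 ratio of Rx>cre Myrf fl/fl over Myrf fl/fl in RPE-like cells (horizontal axis, 1 CPM added to each side) for the 58 measured genes of the Smad pathway list, grouped by role; lines are 95% counting intervals of the ratio with nothing added, and filled red points are called. Of 7 BMP targets 4 lie to the right between 1.27 and 1.72, and Wfikkn2 lies farthest to the left at -4.01.

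Genes whose levels followed a member most closely were ranked by Pearson's r of log2(CPM + 1) over the 24 sums of class and library, among 9443 genes with a mean of at least 10 CPM. Sums of a library share its depth and free RNA, so these values are descriptions. The sums include red blood-like cells, where the 8 red blood markers took 851498 (control) and 831969 CPM (mutant). Smad4 stood at 7.50 and 5.51 CPM there, its lowest level in each library. Values of r without that class were not computed. Smad6 was followed most closely by Myo6 (0.95), Heph (0.88) and Per3 (0.87), and Smad9 by Ednra (0.87), Cpm (0.87) and Fzd1 (0.86). Smad1 was followed by Nck1 (0.96), Rdx (0.95) and Zcchc14 (0.95), Smad5 by Csnk1g2 (0.93), Tbl1x (0.93) and Gna11 (0.92), and Smad2 by Glrx2 (0.95), Actr8 (0.94) and Ttc5 (0.94). The nearest to Smad3 were Sh3d19 (0.88), Rhod (0.88) and Slc12a4 (0.87), to Smad4 Kdm2a (0.98), Shprh (0.98) and Parg (0.98), and to Smad7 Dnaja1 (0.94), Upf3a (0.92) and Wdfy1 (0.92). Among the members, Smad1 and Smad5 were most alike (0.91), Smad6 went with Smad5 (0.66) and Smad9 (0.66), and Smad2 and Smad3 ran apart (-0.22).

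The members lie on 5 chromosomes of GRCm38 by GENCODE release M21. Smad6 (9: 63953076 to 64022059) and Smad3 (9: 63646767 to 63757994) neighbour each other on the minus strand, and Smad9 (3: 54755582 to 54801257), Smad1 (8: 79338395 to 79399518) and Smad5 (13: 56703010 to 56742377) are on their own. Smad2 (76241580 to 76310963), Smad4 (73639009 to 73703780) and Smad7 (75367529 to 75395935) lie on chromosome 18. Smad4 overlaps 1 gene on the opposite strand and Smad5 overlaps 3 small RNA genes on its own strand, and no other member overlaps a gene on its strand.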

How the data were processed

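Eye cups of postnatal day 0 mice were profiled with 10x droplets by the authors, with 1 library per genotype. The deposited values are raw UMI counts per gene and cell, made per the labels with Cell Ranger 7.1.0 on mm10 (the matrix headers name another Cell Ranger version), with Seurat 4.1.1 used afterwards. The authors counted 3′ ends, so levels were not divided by length.

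Cells with at least 200 genes and at most 15% mitochondrial UMIs were kept. Doublets were scored with Scrublet in scanpy 1.11.5 and removed at an expected rate in proportion to the barcodes of each library (1682 and 1230 cells), since its own threshold marked 0% and 5.48%. Both libraries were integrated and clustered in Seurat 5.3.0 (R 4.3.3) with 1951 genes, leaving out the Smads and their pathway. Of 35 clusters 11 stayed unnamed, with 30.9% of control and 24.8% of mutant cells, 4 of them for a median depth under 50% of that of the library, a limit chosen after the clusters were seen. Counts were added up per class and library in Python 3.11.15 (numpy 2.4.6) and divided by the class total. Intervals were exact Poisson, conditional Poisson or Clopper-Pearson intervals (scipy 1.17.1). No test was made, because each genotype had 1 library. Scripts were tested on simulated data.

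The members and gene lists were chosen with earlier results of these data known. Named genes were the members, up to 6 pathway genes with the largest fold in each direction, the turnover genes and BMP targets with at least 20 UMIs, and the 3 genes most like each member. Other settings were tried for filters, doublets, depth, scaling and clustering, 13 chosen with the design and 4 after seeing the data.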

Additional observations from a re-analysis of the deposited data

Results flagged for a closer look

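Members for which the mutant over control difference ran in opposite directions in a pair of classes, each with a counting interval off 0, were singled out. The difference between the classes was not tested, since each genotype had 1 library. Smad1 had a log2 ratio of 0.47 (from 0.22 to 0.72) in endothelial-like cells and of -0.32 (from -0.50 to -0.16) in retinal progenitor-like cells, and neither reached 1.5-fold. The endothelial-like value reversed to -0.48 in cells of up to 2000 UMIs, and the median depth of that class was 4438.5 and 8997.5 UMIs. Smad9 had a log2 ratio of 2.48 in RPE-like cells and of -0.56 in retinal progenitor-like cells, where it rested on 10 control UMIs and 2 mutant UMIs. Smad7 had a log2 ratio of 0.22 (from 0.08 to 0.37) in retinal progenitor-like cells and of -1.28 in surface epithelium-like cells, on 30 and 9 UMIs. Further settings that reversed some of these values are given below.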

How the results depend on the processing

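The log2 ratio of Smad6 in RPE-like cells kept its sign under 15 of 17 alternatives and that of Smad9 under 16 of 17, with no Smad9 UMI left after thinning to 1000 UMIs. Smad6 ranged from -0.74 to 1.34. Smad9 ranged from 0 to 4.61 (0 and 1 UMIs in cells of up to 2000 UMIs) and moved beyond its counting interval under 4 settings, among them 1.47 when thinned once to 2000 UMIs and 1.01 with 10 CPM added. Thinning each cell once reversed Smad6, to -0.74 at 1000 UMIs (8 and 2 UMIs left) and -0.73 at 2000 UMIs (16 and 5 UMIs left), and the inhibitory sum, to -0.64 and -0.48. Over all draws Smad6 stood at 0.91 and 0.65, and the inhibitory sum at 2000 UMIs was 0.071. The BMP-regulated sum was 0.72 at 1000 UMIs and -0.21 at 2000 UMIs, and Smad4 was -0.66 at 2000 UMIs. In cells of up to 2000 UMIs the BMP-regulated sum was 1.68 and the inhibitory sum 1.23. With every cell counting the same, the BMP-regulated sum was 0.70. In cells with Y-linked and no Xist UMIs the inhibitory sum was 0.089. Without cells holding a pericyte or endothelial marker UMI, the TGF-beta-regulated sum was -1.16, Smad4 0.51 and the inhibitory sum 0.11. Over all 17 settings the members that were not called in RPE-like cells ranged widely, Smad7 from -1.10 to 1.36, Smad1 from -0.60 to 2.27, Smad2 from -1.20 to 0.56, Smad5 from -0.80 to 0.78, Smad3 from -0.97 to 4.61 and Smad4 from -0.66 to 0.51. Outside the RPE, Smad1 in endothelial-like cells reversed to -0.48 in cells of up to 2000 UMIs and -0.10 when thinned to 1000, Smad4 there to 0.46 and 0.31 when thinned to 1000 and 2000, Smad7 in surface epithelium-like cells to 1.64 on 1 UMI in each library in cells of up to 2000 UMIs, and Smad9 in retinal progenitor-like cells to 0.10 in cells with Xist and no Y-linked UMIs. Thinning and the upper limit leave few UMIs by construction. Thinning also leaves out the shallower cells and gives each kept cell the same total. The cause of the changes was not tested for any setting. No paired analysis was possible because each genotype had 1 library. Depth limits Smad9, with 5 UMIs in control RPE-like cells.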
